A study of Mus musculus with 6 samples.

Results

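The genes described here code for the subunits, assembly factors and regulators of the proteasome. They were chosen by name: every protein-coding mouse gene whose symbol begins with Psm, a letter from a to g and a number. The choice gave 50 of the 55335 genes in the count files, and 4 pseudogenes with such names were left out. RNA of the substantia nigra, a midbrain nucleus, was sequenced from C57 mice in 3 libraries titled WT, called control here, and in 3 libraries labelled shDNAJB1. The label stands for a short hairpin RNA against Dnajb1, which codes for an HSP40 co-chaperone of HSP70. The sources used here do not give age, sex, the vector or time of the hairpin, or whether controls received one. The comparison addressed the molecular effect of lowering Dnajb1 in this nucleus. The labels do not say whether each library is a different animal. The p-values therefore reflect the spread among these samples alone, and that spread may be technical.

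The proteasome is the cell's main protease for proteins tagged with ubiquitin. Its barrel, the 20S core, has outer rings of alpha subunits, which gate the entrance, and inner rings of beta subunits, of which Psmb5, Psmb6 and Psmb7 carry the proteolytic sites. The 19S cap recognises ubiquitin, removes it, and unfolds substrates with a ring of ATPases. In cells exposed to interferon, Psmb8, Psmb9 and Psmb10 take the places of the constitutive catalytic subunits and form the immunoproteasome. Dedicated chaperones assemble core and cap, and the transcription factor encoded by Nfe2l1 is known to raise proteasome genes through antioxidant response elements when proteasome activity is short. In neurons the proteasome is studied for its part in clearing misfolded proteins.

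Upstream sequence was read for 4 members to show the letters of that element, TGACNNNGC on either strand, near a catalytic or cap subunit gene. All stretches are from RefSeq promoters of build GRCm38.p6, 5′ to 3′ on the gene's own strand, and capitals mark the matched letters. The stretches are chr14:54618023-54618082 on the minus strand for Psmb5, chr11:70525297-70525356 on the plus strand for Psmb6, chr14:45329574-45329633 on the plus strand for Psmc6 and chr11:107479278-107479337 on the plus strand for Psmd12.
Psmb5: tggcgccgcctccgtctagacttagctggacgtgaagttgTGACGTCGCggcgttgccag
Psmb6: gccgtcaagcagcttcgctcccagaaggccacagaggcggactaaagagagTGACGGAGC
Psmc6: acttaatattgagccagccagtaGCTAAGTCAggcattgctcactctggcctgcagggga
Psmd12: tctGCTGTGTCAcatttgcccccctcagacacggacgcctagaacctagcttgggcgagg
The match begins 47 bases before the RefSeq start of Psmb5 and 9 bases before that of Psmb6, and 227 and 247 bases before those of Psmc6 and Psmd12. Of the 50 members, 42 had a promoter in the table, in 45 windows from 250 bases before to 50 bases after a start. The letters TGACNNNGC occurred in 6 of the 45 windows, 13.3%, and in 12.4% of all 32851 windows. The other windows with a match were those of Psmd9 and Psme4. The CCAAT box occurred in 15 of the 45, 33.3%, against 37.4% of all windows. The core of the interferon-stimulated response element, GAAA followed by 2 bases of any kind and a second GAAA, occurred in 5 of the 45, 11.1%, against 3.44%, in Psmb3, Psmd4, Psmd9, Psme1 and Psmg4. These matches were searched on both strands and describe letters only.

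Total counts per library ran from 24541386 to 38468363. Dopaminergic markers were present in every library, with Th, the enzyme of dopamine synthesis, at 97.0 to 418 CPM (counts scaled to the library's size by TMM), while the 3 T cell markers summed to at most 0.73 CPM. Dnajb1, the target, was at 59.8, 47.2 and 51.9 CPM in control 1, 2 and 3 and at 44.3, 52.4 and 52.5 CPM in shDNAJB1 1, 2 and 3. The groups overlapped, with a log2 fold change of -0.09 (SE 0.13) and an edgeR adjusted p = 0.909. Since no fall of the target was detected, directions below refer to the library label.

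No difference between the groups was detected for any member of the proteasome family. Of the 50 members 49 had enough counts to be tested, and 0 passed the quasi-likelihood test of edgeR at an adjusted p of 0.05, as did 0% of all 18870 genes tested. Over all genes limma-voom also called 0%, and DESeq2 called 35 of 20938 genes, 0.167%, with 0 members among the calls of either tool. At an unadjusted p under 0.05 there were 0 members by each of the 3 tools, against 6.37% of all tested genes in edgeR, 3.33% lower and 3.04% higher. The smallest unadjusted p of a member was 0.107, for Psmd1, with an adjusted p = 0.775. Values were lower in the libraries labelled shDNAJB1 for 32 of the 49, 65.3%, against 49.2% of all genes, with a median log2 difference of -0.05 against 0.0053 over all genes. The lean depended on single libraries of either group. Without control 1 17 of the 49 were lower, with a median of 0.04. Without shDNAJB1 3 and shDNAJB1 2 26 and 29 were lower, with medians of -0.0047 and -0.03. Without control 2 and shDNAJB1 1 38 and 39 were lower, with medians of -0.12 and -0.13, and without control 3 33 were lower, with a median of -0.06. For 2 of the 49 members, Psmd2 and Psmf1, all libraries of one group lay below all of the other, a share of 4.08% against 14% of all genes tested. Both members were lower, as were 7.06% of all genes, while 0 members and 6.98% of all genes were higher.

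The libraries allowed narrow limits on most members. The 95% interval of the log2 fold change stayed within a 1.5-fold change in either direction for 40 of the 49 tested members, 81.6%, against 42.54% of all genes tested. Among the 41 members at a mean of 10 CPM or more it did so for 39. Only 10490 of all genes tested reached that level, and their share was not computed. The 42.54% is thus not matched to the members by level. The exceptions among all 49 were Psmb6, Psmc5, Psmb8, Psmb9, Psma8, Psmg3, Psmg4, Psme2b and Psmc3ip. Of these, Psmb6 and Psmc5 are abundant, while the other 7 ranged from 0.165 to 6.29 CPM over the libraries.

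**Figure D1:**
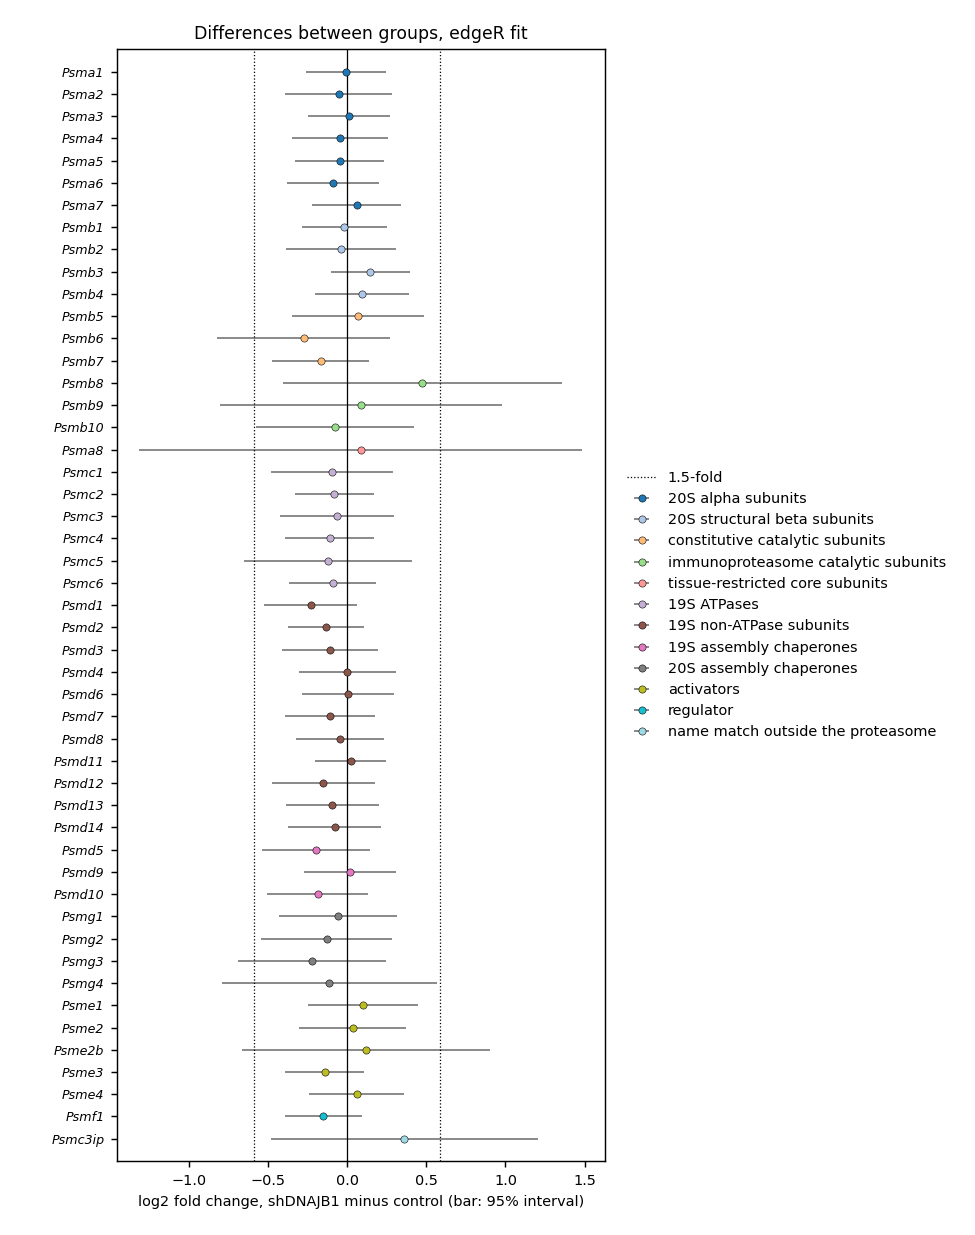
The log2 fold change of each of the 49 tested members (horizontal axis, shDNAJB1 minus control) is a point and its 95% interval a bar, with colours for the class and dotted lines at a 1.5-fold change. Every interval includes 0, and the widest belong to Psma8, Psmb8, Psmb9, Psme2b and Psmc3ip.

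The alpha ring genes had similar values in both groups. The 7 members Psma1 to Psma7 had log2 differences from -0.09 to 0.06, with a median of -0.04 and 0 past the threshold (smallest adjusted p = 0.907). Of the 7, 5 were lower, against 49.2% of all genes tested. Psma6, with the smallest p, was at 80.2, 66.5 and 67.0 CPM in control 1, 2 and 3 and at 73.5, 66.8 and 60.6 CPM in shDNAJB1 1, 2 and 3. The groups overlapped, and control 1 and shDNAJB1 1 were the highest of their groups. The difference was -0.09 (SE 0.13, interval -0.38 to 0.20). Within the ring Psma1 differed least, at 56.1 ± 4.08 CPM (SD, n = 3) in controls and 55.9 ± 3.36 CPM in the other group. The class median was 0.05 without control 1, 0.02 without shDNAJB1 2 and 0.02 without shDNAJB1 3.

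Among the beta subunits without a proteolytic site, Psmb1 to Psmb4, the median log2 difference was 0.04, with 2 higher and 2 lower and 0 past the threshold. It was -0.03 without control 2 and -0.03 without shDNAJB1 1. Psmb3 was at 41.2, 38.2 and 38.0 CPM in control 1, 2 and 3 and at 46.8, 42.7 and 40.4 CPM in shDNAJB1 1, 2 and 3. Only shDNAJB1 3 lay within the control range, and the difference was 0.15 (SE 0.11, edgeR adjusted p = 0.814). Psmb4 was at 86.4 ± 10.5 and 92.3 ± 8.14 CPM (SD, n = 3 each).

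Of the 3 constitutive catalytic subunits 2 were lower and 1 higher, with a median log2 difference of -0.17 and 0 past the threshold. Without control 1 the median was 0.07. Psmb6, which carries the caspase-like site, was at 106, 60.7 and 58.2 CPM in control 1, 2 and 3 and at 71.5, 59.5 and 55.2 CPM in shDNAJB1 1, 2 and 3. Control 1 stood apart from all 5 other libraries. The log2 difference of -0.27 (SE 0.24, adjusted p = 0.836) became 0.07 without control 1. Psmb7, with the trypsin-like site, was at 104, 81.3 and 90.4 CPM in controls and at 91.2, 75.4 and 79.1 CPM in the other group, a difference of -0.17 (SE 0.13, adjusted p = 0.825). The 3 libraries of each group overlapped with those of the other. Psmb5, with the chymotrypsin-like site, was at 53.2, 42.3 and 47.1 CPM and at 64.1, 42.8 and 43.0 CPM, a difference of 0.07 (SE 0.18, adjusted p = 0.953). Its highest library was shDNAJB1 1, not control 1. Of the 899 exonic bases of Psmb5, 109 are shared with Mir686 on the same strand, and 405 of the 3421 of Psmb7 with Nek6 on the opposite strand.

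Of the immunoproteasome transcripts, Psmb8 and Psmb9 were scarce and Psmb10 was more abundant. Of the 3 genes 2 were higher and 1 lower, with a median log2 difference of 0.09 and 0 past the threshold, and the median was -0.25 without shDNAJB1 1 and 0.39 without shDNAJB1 3. Psmb8 was at 2.69, 4.81 and 1.86 CPM in control 1, 2 and 3 and at 5.80, 3.52 and 3.72 CPM in shDNAJB1 1, 2 and 3, from 56 to 145 counts. The groups overlapped through control 2, and the difference was 0.48 (SE 0.38, interval -0.41 to 1.36, adjusted p = 0.826). Without control 2 it was 0.92, with an unadjusted p = 0.0329 and an edgeR adjusted p = 0.750. In that fit 1265 of 19457 genes had an unadjusted p under 0.05. Psmb9 was at 1.54, 1.70 and 1.33 CPM in controls and at 2.31, 1.69 and 0.897 CPM in the libraries labelled shDNAJB1, so that the second group held both the highest and the lowest library. It rested on 35 to 57 counts per library, a counting error of 13.2% to 16.9%, and its difference was 0.09 (SE 0.39, adjusted p = 0.978). Psmb10 was at 19.2, 14.4 and 15.7 CPM and at 20.3, 12.1 and 14.5 CPM, a difference of -0.07 (SE 0.22, adjusted p = 0.959). Exons of Psmb8 share 498 bases with Gm20496, and those of Psmb9 share 212 with Tap1, both on the opposite strand. The sources used here do not say whether counting used the strand, so reads of such overlaps cannot be told apart.

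Per length, each immunoproteasome subunit can be set beside the constitutive subunit whose place it takes. RPKM here is TMM-scaled CPM per kilobase of all annotated exons of a gene. Psmb10 reached 32.1% to 44.7% of the RPKM of Psmb7 over the 6 libraries. Psmb8 reached 1.05% to 3.03% of Psmb5, and Psmb9 0.742% to 1.65% of Psmb6. The 3 immunoproteasome subunits together made up 7.86%, 9.10% and 8.42% of the summed RPKM of the 6 catalytic genes in the controls, and 9.48%, 7.79% and 8.91% in the libraries labelled shDNAJB1. The group means were 8.46% ± 0.621 and 8.73% ± 0.857 (SD, n = 3), and the groups overlapped. With the longest coding transcript as the length, the ratio was 14.2% to 19.7% for Psmb10 to Psmb7, 2.18% to 6.28% for Psmb8 to Psmb5 and 0.856% to 1.91% for Psmb9 to Psmb6. The mean shares were then 6.53% and 7.10%.

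**Figure D2:**
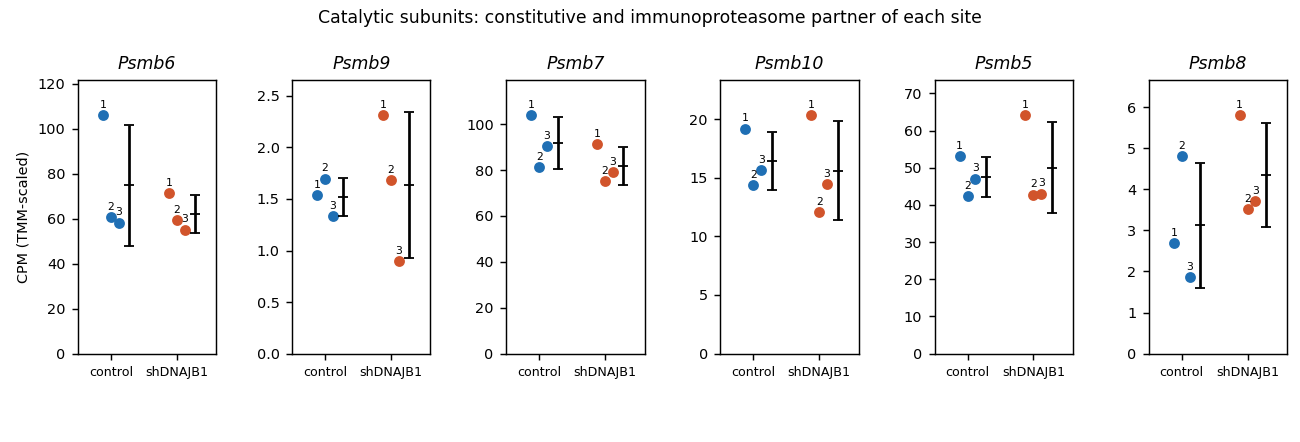
CPM (vertical axes, each from 0) of the constitutive subunit and its immunoproteasome partner for the 3 catalytic sites, with the 3 libraries of each group as numbered points and the mean with 1 SD as a bar. Psmb6 in control 1, at 106 CPM, stands above the other 5 libraries, and shDNAJB1 1 is the highest library for Psmb5, Psmb8, Psmb9 and Psmb10.

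Markers of microglia and genes of antigen processing are given beside Psmb8. The 6 microglia markers, including Cx3cr1, P2ry12 and C1qa, summed to 217, 334.9 and 169 CPM in control 1, 2 and 3 and to 378, 133 and 109 CPM in shDNAJB1 1, 2 and 3. Control 2 and shDNAJB1 1 were highest for both Psmb8 and this sum. Below them the orders differed: shDNAJB1 2 and 3 had the lowest sums, yet their Psmb8 values, 3.52 and 3.72 CPM, were above those of control 1 and control 3. The 10 interferon-inducible antigen processing genes, such as Tap1, B2m and H2-K1, summed to 317, 343 and 257 CPM and to 431, 275 and 259 CPM, with the same 2 libraries highest. Of these 10 genes 0 passed, 7 were higher and 3 lower, and the median log2 difference was 0.06. The part of microglial RNA in the Psmb8 values was not tested. In bulk tissue, fewer cells of a type and less RNA per cell cannot be told apart.

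All 6 ATPases of the cap had lower values, by small and similar amounts. The log2 differences of Psmc1 to Psmc6 ran from -0.12 to -0.07, with a median of -0.09, and 0 passed. Of all genes tested, 49.2% were lower. Psmc4, with the smallest p, was at 75.5, 65.1 and 64.9 CPM in control 1, 2 and 3 and at 71.1, 60.6 and 59.0 CPM in shDNAJB1 1, 2 and 3, a difference of -0.11 (SE 0.12, adjusted p = 0.871). Its groups overlapped through shDNAJB1 1. Psmc5, singled out after its values were seen, was at 216, 178 and 182 CPM in controls and at 248, 144 and 138 CPM in the other group. Its highest and its 2 lowest libraries all carry the shDNAJB1 label, and the difference was -0.12 (SE 0.23, adjusted p = 0.932). Without shDNAJB1 1 it was -0.45, with an unadjusted p = 0.00855 and an edgeR adjusted p = 0.261. In that fit 2514 of 19477 genes had an unadjusted p under 0.05, against 1202 of 18870 with all libraries. Psmc1 had the same order at the top as Psmc5, with 202 CPM in shDNAJB1 1 and 198 CPM in control 1, and 144 CPM in both shDNAJB1 2 and 3. The class median was -0.02 without control 1, and -0.04 and -0.03 without shDNAJB1 2 and 3.

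The cap subunits without ATPase activity leaned the same way. Of 11 members 8 were lower and 3 higher, against 49.2% of all genes lower. Their median log2 difference was -0.09, with 0 past the threshold, and without control 1 the median was 0.0088. Psmd1, the largest cap scaffold, was at 198, 166 and 172 CPM in control 1, 2 and 3 and at 136, 153 and 167 CPM in shDNAJB1 1, 2 and 3. Only shDNAJB1 3 lay within the control range. The difference was -0.23 (SE 0.13, interval -0.52 to 0.06, adjusted p = 0.775), and here shDNAJB1 1 was the lowest library, unlike for most subunits. Psmd2, the other large scaffold, was at 211, 192 and 200 CPM and at 190, 178 and 182 CPM. Its groups did not overlap, at a difference of -0.13 (SE 0.10, adjusted p = 0.821). Psmd11, a lid subunit, varied least of all members, at 58.4 ± 2.55 and 59.3 ± 0.605 CPM (SD, n = 3 each). Psmd4, a ubiquitin receptor, was at 98.2 ± 7.17 and 98.4 ± 14.3 CPM, and Psmd14, the deubiquitinase of the lid, at 72.8 ± 9.32 and 69.0 ± 4.97 CPM.

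Of the 7 assembly factors 6 had lower values in the libraries labelled shDNAJB1 (median -0.13), with 0 past the threshold. Among the cap chaperones, Psmd10, also called gankyrin, was at 15.9, 13.5 and 15.7 CPM in control 1, 2 and 3 and at 13.1, 12.6 and 13.9 CPM in shDNAJB1 1, 2 and 3. The groups overlapped through control 2 and shDNAJB1 3, and the difference was -0.18 (SE 0.14, adjusted p = 0.817). Psmd5 was at 65.2 ± 7.81 and 56.9 ± 8.45 CPM, with shDNAJB1 1 lowest at 47.2 CPM, and Psmd9 was at 20.8 ± 2.16 and 21.1 ± 0.567 CPM (SD, n = 3 each). Of the exonic bases of Psmd9, 25.5% overlap Gm26745 on the opposite strand. All 4 chaperones of the core, Psmg1 to Psmg4, had lower values (median -0.12). Psmg3 was at 5.85, 5.19 and 6.29 CPM and at 5.68, 4.20 and 4.998 CPM, with overlapping groups and a difference of -0.22 (SE 0.20, adjusted p = 0.845). Over all genes tested, 49.2% were lower. The median over all 7 stayed between -0.22 and -0.10 on leaving out each library in turn, and that of the core chaperones between -0.19 and -0.06. Single factors turned direction in some of these fits: Psmg1 reached 0.058, Psmg2 0.019, Psmg4 0.087 and Psmd9 -0.055.

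The activators, which cap the core in place of the 19S particle, had a median log2 difference of 0.06 with 4 higher, 1 lower and 0 past the threshold, and the median was -0.03 without control 3. Psme3, the nuclear PA28 gamma subunit, was the 1 lower member, at 112, 102 and 98.6 CPM in control 1, 2 and 3 and at 101, 89.7 and 93.0 CPM in shDNAJB1 1, 2 and 3. The groups overlapped through shDNAJB1 1, and the difference was -0.14 (SE 0.11, adjusted p = 0.821). Psme1 and Psme2, the interferon-inducible PA28 alpha and beta subunits, were at 32.9 ± 5.79 and 35.3 ± 2.33 CPM and at 15.8 ± 1.00 and 16.2 ± 2.06 CPM (SD, n = 3 each). Psme4, the PA200 activator, was at 51.9 ± 7.08 and 54.1 ± 3.10 CPM. Psme2b, a short gene with a Psme2-like name, had 40 to 78 counts per library. Psmf1, the PI31 regulator, was at 33.9, 33.7 and 34.3 CPM in controls and at 28.5, 30.7 and 32.6 CPM in the libraries labelled shDNAJB1. Its groups did not overlap, its control values were within 1 CPM of each other, and the difference was -0.15 (SE 0.11, interval -0.39 to 0.10, adjusted p = 0.812).

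Core subunits restricted to other tissues were close to absent. Psmb11, the thymus form of the Psmb5 subunit, was not tested: the control libraries held 5, 3 and 3 counts and those labelled shDNAJB1 held 0, 4 and 0. Psma8, the testis form of an alpha subunit, was at 0.165, 0.519 and 0.532 CPM in controls and at 0.243, 0.646 and 0.385 CPM in the other group, from 6 to 18 counts. The groups overlapped, and the difference was 0.09 (SE 0.61, interval -1.31 to 1.49, edgeR adjusted p = 0.989). Psmc3ip shares the name pattern but codes for a meiotic recombination factor. It was at 1.07, 0.693 and 1.56 CPM in controls and at 1.42, 1.51 and 1.36 CPM in the other group, with overlapping groups (0.36, SE 0.37, adjusted p = 0.853), and 21.2% of its exonic bases overlap Mlx on the opposite strand.

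The 31 constitutive subunits of core and cap were high or low together in single libraries of either group. In control 1 all 31 were above their own mean over the 6 libraries, and in shDNAJB1 1 27 were. In control 2, shDNAJB1 2 and shDNAJB1 3 only 3, 4 and 2 were, and in control 3 it was 18. The median deviation on the log2 scale was 0.18, -0.11 and 0.014 for the controls in order, and 0.11, -0.09 and -0.10 for the other libraries. For 23 of the 31 genes, control 1 and shDNAJB1 1 were the 2 highest libraries. The summed CPM of the 31 was 3009, 2474 and 2648 in controls and 2867, 2444 and 2401 in the other group, with means of 2710 ± 273 and 2571 ± 258 (SD, n = 3). The group difference was thus smaller than the spread within either group.

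**Figure D3:**
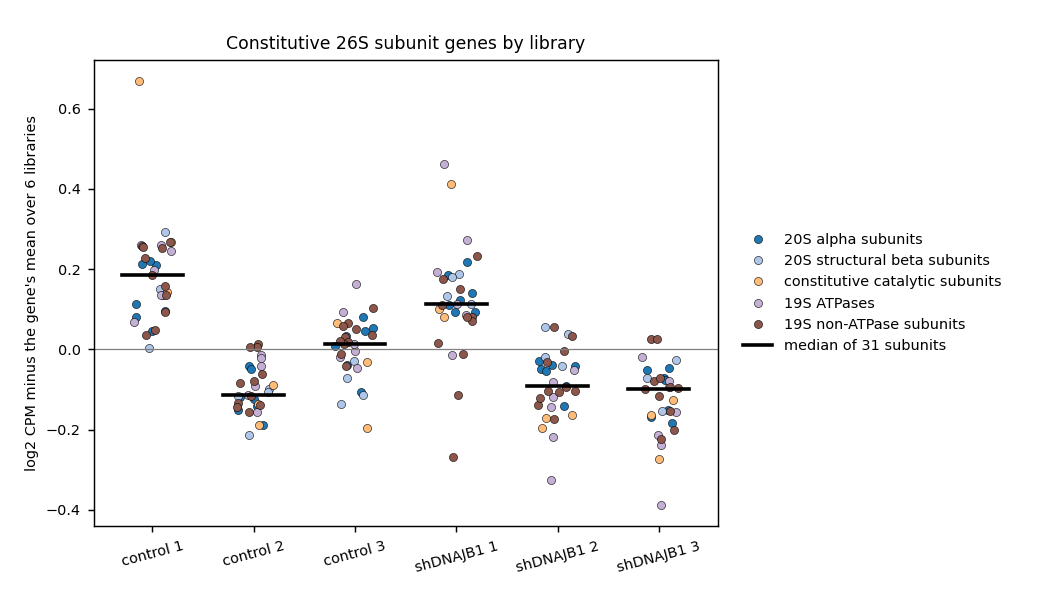
Each point is 1 of the 31 constitutive core and cap genes in 1 library, as log2 CPM minus that gene's mean over the 6 libraries (vertical axis), with black lines at the median of each library. All 31 points of control 1 and 27 points of shDNAJB1 1 lie above 0, with medians of 0.18 and 0.11, and the topmost point of control 1 is Psmb6.

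The ratio of summed RPKM of the core genes to that of the cap genes stayed between 0.656 and 0.724 in the 6 libraries. Neuronal markers did not follow 1 common order over the libraries. The 3 GABAergic markers Gad1, Gad2 and Slc32a1 summed to 1372, 1083 and 1069 CPM in control 1, 2 and 3 and to 1465, 654.6 and 242 CPM in shDNAJB1 1, 2 and 3. Gad2 alone was at 375 CPM in shDNAJB1 1, below its 3 control values. The 5 pan-neuronal markers, among them Snap25 and Nefl, summed to 5226, 4197 and 4373 CPM and to 4296, 3417 and 3539 CPM. Control 1 and shDNAJB1 1 were highest for the GABAergic sum, as for the summed subunits, and control 1 was highest for the pan-neuronal sum. In shDNAJB1 2 and 3 both of these marker sums were lowest, as were the summed subunits. Of the pan-neuronal markers, Snap25, Nefl and Tubb3 were each lowest in these libraries. Rbfox3 and Syt1 were instead lowest in shDNAJB1 1, at 53.4 and 723 CPM. They were at 85.0 and 964 CPM in shDNAJB1 2 and at 110 and 884 CPM in shDNAJB1 3. The 5 dopaminergic markers summed to 875, 2525 and 1061 CPM and to 2003, 1548 and 660 CPM, with control 2 highest, a library where the subunits were low. Th, Slc6a3, Slc18a2 and Ddc were each highest in control 2. Nr4a2 went another way and was highest in shDNAJB1 3, at 95.9 CPM, where the sum was lowest. The part of cell composition in the proteasome values was not tested.

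The coefficient of variation over all 6 libraries had a median of 9.83% over the 41 members at 10 CPM or more, against 12.7% over all 10490 genes above that floor. The floor does not match these genes to the members by level. Among the 31 constitutive subunits it ran from 2.94% for Psmd11 to 27.99% for Psmb6.

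Levels per length differed several-fold among subunits that are present in equal numbers in the particle. Psmc5 was highest at 132 ± 30.3 RPKM (SD over 6 libraries), followed by Psmc1 at 87.4 ± 13.2, and Psmc5 was above Psmc1 in 6 of 6 libraries although their ranges overlapped. The range of Psmc1 lay wholly above that of the next gene, Psma6, at 56.0 ± 5.49. Psmb5 was at 54.2 ± 9.54, Psmd2 at 47.6 ± 2.95 and Psmb4 at 45.8 ± 4.62 RPKM. At the low end Psmc2 was at 16.6 ± 1.13 and Psmd13 at 16.2 ± 1.596 RPKM, and Psmd11 was last at 9.22 ± 0.271, wholly below Psmd13. Of the 30 pairs of neighbours in this order 28 had overlapping ranges.

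Within the alpha ring the levels ran from 18.98 ± 1.13 RPKM for Psma1 to 56.0 for Psma6, with Psma5 at 31.7 ± 2.62, Psma4 at 25.4 ± 2.58, Psma2 at 23.0 ± 2.82, Psma7 at 20.6 ± 1.84 and Psma3 at 19.5 ± 1.32. Among beta subunits Psmb6 was at 36.6 ± 10.2, Psmb2 at 30.3 ± 3.91, Psmb7 at 25.4 ± 3.05, Psmb1 at 19.7 ± 1.47 and Psmb3 at 17.9 ± 1.43 RPKM. The remaining ATPases were Psmc3 at 38.4 ± 5.22, Psmc4 at 30.5 ± 2.90 and Psmc6 at 28.5 ± 2.40 RPKM. The other cap subunits lay between Psmd7 at 36.9 ± 3.66 and Psmd3 at 17.6 ± 1.93 RPKM, with Psmd4, Psmd12, Psmd14, Psmd6, Psmd1 and Psmd8 in that order from 35.0 to 18.7. The highest of the 14 constitutive core genes was 3.13 times the lowest.

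Assembly factors and most activators lay below nearly all subunits. Cap chaperones had means of 2.89 RPKM for Psmd9, 8.45 for Psmd5 and 9.61 for Psmd10, and core chaperones from 1.85 for Psmg3 to 7.05 for Psmg1. Psme3 was at 33.8 ± 2.71 RPKM, above Psme1 at 15.4 ± 1.88, Psme2 at 9.05 ± 0.830 and Psme4 at 6.32 ± 0.601. Psmf1 was at 5.01 ± 0.350 RPKM. Psmb10 was at 9.39 ± 1.84, Psmb8 at 1.10 ± 0.420 and Psmb9 at 0.431 ± 0.128 RPKM.

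**Figure D4:**
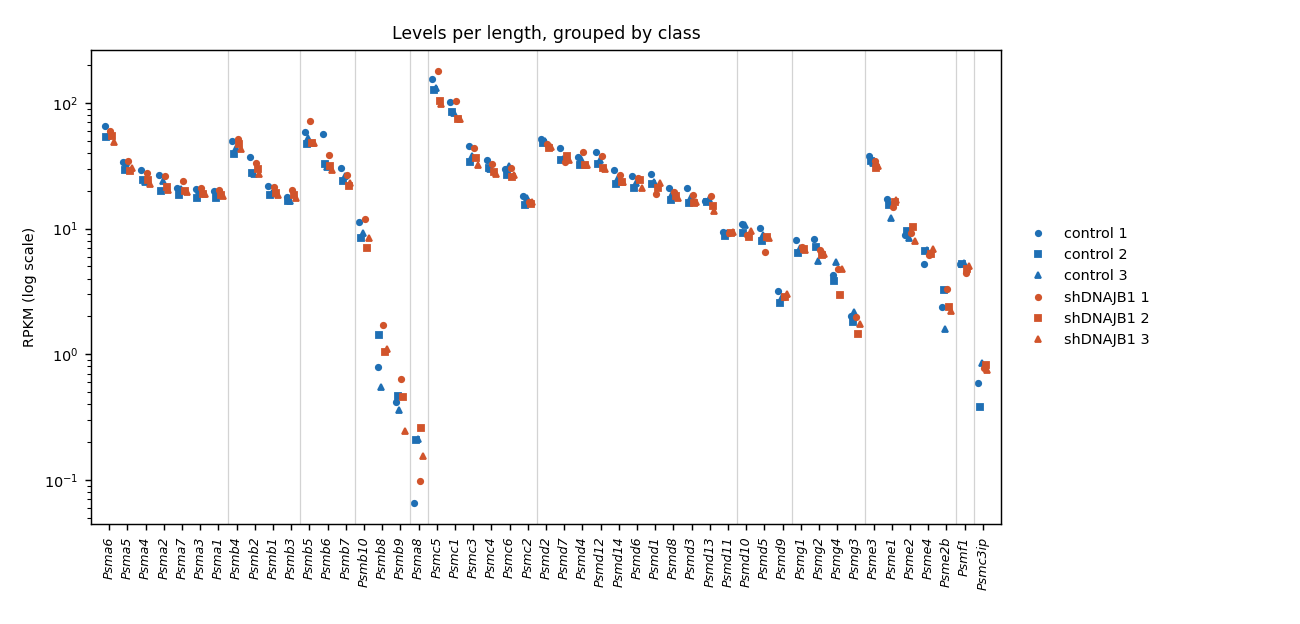
RPKM on a log axis for 49 members, all but Psmb11, ordered by class and by level within it, with 1 symbol per library and colours for the group. Most constitutive subunits lie between 10 and 100 RPKM, while Psmb8, Psmb9, Psmc3ip and Psma8 have means of 1.10 RPKM or less.

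The order of levels was stable between libraries but not between gene models. The rank correlation of the 31 subunits between any pair of libraries was 0.962 to 0.989, a description across genes that share each library. With the longest coding transcript as the length, Psmc5, Psmc1 and Psmd11 kept ranks 1, 2 and 31. Psmb6 then moved from rank 9 to 3 at 85.9 RPKM, Psmb7 from 17 to 5 at 74.9 RPKM and Psmb5 from 4 to 11 at 54.2 RPKM. The rank correlation between both lengths was 0.694. Levels of single subunits relative to each other therefore depend on the transcripts assumed.

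Partners and regulators of the proteasome outside the family also had 0 genes past the threshold. Of 10 partner genes measured, 9 were lower, against 49.2% of all genes tested, with a median log2 difference of -0.04. Ube3c, a ubiquitin ligase that binds the proteasome, was at 86.8, 85.8 and 85.9 CPM in control 1, 2 and 3 and at 62.8, 76.2 and 73.8 CPM in shDNAJB1 1, 2 and 3. Its groups did not overlap, and the difference was -0.28 (SE 0.11, unadjusted p = 0.0358, edgeR adjusted p = 0.765). The other partners, such as Pomp, the maturation factor of the core, and Adrm1, a ubiquitin receptor, had overlapping groups. Of 8 regulator genes 5 were lower and 3 higher (median -0.06). Nfe2l1, whose product is known to act through antioxidant response elements, was at 401, 371 and 362.5 CPM in controls and at 351, 299.7 and 298 CPM in the other group. Its groups did not overlap either, at -0.26 (SE 0.12, unadjusted p = 0.0660, edgeR adjusted p = 0.765). Groups did not overlap for Nfe2l2, a related factor, with means of 25.7 ± 2.94 and 20.7 ± 1.98 CPM, and for Vcp, an unfoldase that hands proteins to the proteasome, with 332 ± 20.6 and 306 ± 1.61 CPM (SD, n = 3 each), both lower at an edgeR adjusted p = 0.765 and 0.843. These 3 regulators were named after their values were seen, and the other regulators had overlapping groups. Over all genes tested, groups did not overlap for 14%, with 7.06% lower.

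Rad23b, a shuttle receptor that carries ubiquitinated proteins to the cap, was at 194, 169 and 169 CPM in control 1, 2 and 3 and at 148, 160 and 162 CPM in shDNAJB1 1, 2 and 3. Its groups did not overlap (edgeR adjusted p = 0.787), as for 14% of all genes tested. Ubb, a polyubiquitin gene, was highest in control 1 at 909 CPM.

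The members lie on 16 chromosomes of mm10, 10 of them on chromosome 11. Psmb9 (chr17:34181987-34187764) and Psmb8 (chr17:34197721-34201454) lie close together, as do Psme1 (chr14:55578123-55581529) and Psme2 (chr14:55587441-55591113). Head-to-head neighbours were counted only where the genes do not overlap at their starts. Such a protein-coding neighbour, starting on the opposite strand within 1000 bases, was annotated for 8 of 50 members, 16%. The share was 6.78% of 21951 protein-coding genes. For Psmc2 that neighbour is Dnajc2, a J-protein gene, 32 bases away, and for Psmb1 it is Tbp, 137 bases away. Exons of 15 members overlap those of another gene, by over 10% of their bases for 6. The 23 of the 31 constitutive subunits without any overlap had a median log2 difference of -0.05, against -0.07 for all 31. The 4 pseudogenes left out had 0 to 3 counts in any library.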

How the data were processed

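Strand-specific TruSeq libraries were built from Trizol-extracted total RNA, according to the protocols in the labels. Raw counts were deposited for each Ensembl gene in 1 file per library. Per the submitters' processing notes, the tools included STAR 2.5.3a, FastQC 0.11.5, DESeq 1.16.1 and Cuffnorm, with no order given. The build was mm10. The sources used here do not give the counting tool, annotation release or strand setting. CPM are counts scaled to a library's effective size. GENCODE M21 named 55154 of the 55335 identifiers.

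Groups came from the sample titles. Counts were fitted with edgeR 4.0.16 (R 4.3.3) after filterByExpr (minimum count 10, minimum total 15) and TMM scaling, and glmQLFTest p-values were adjusted by Benjamini-Hochberg over all 18870 genes tested, at a threshold of 0.05. Intervals are 95% intervals from the fit. The code of the fit was checked on simulated counts, and the share of changed genes it recovered is not reported here. RPKM used the union of annotated exons as length. Counting error ran from 23.6% to 40.8% for Psma8 and from 8.31% to 13.4% for Psmb8.

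Values per library were given for the 6 catalytic subunits and, in each other class, for the tested member with the smallest unadjusted p, and for listed pathway genes with an unadjusted p under 0.05. Psmd2, Psmd5, Psmd11, Psmc1, Psmc5, Psma1, Psmb4, Psmd4, Psmd14, Rad23b and the other genes with values were singled out after their values were seen. The members and lists were chosen with earlier results of these data known. Alternatives used DESeq2 1.42.0 and limma 3.58.1 and the settings named in the closing section. Some genes of the pathway and marker lists are not reported here.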

Additional observations from a re-analysis of the deposited data

How the results depend on the processing

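The 7 other alternatives and the 6 fits without 1 library gave 0 members past the threshold. Over all genes DESeq2 called 35 and each other fit 0. At an unadjusted p under 0.05 the fits without 1 library gave 0 to 1 member, Psmb8 without control 2 and Psmc5 without shDNAJB1 1. Over all genes, 1265 of 19457 were at that level without control 2 and 2514 of 19477 without shDNAJB1 1. The lowest adjusted p of a member was 0.261 in the fits without 1 library and 0.685 in the other alternatives. With the longest coding transcript as length the immunoproteasome share over the 6 libraries was 6.82%, against 8.59%. Of the 49 members 17 kept their direction in every fit, 32 turned it on leaving out some library (19 of them without control 1), and 6 in another alternative. The cause was not tested.

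The log2 fold change of Psmd4 turned to -0.0017 with DESeq2 size factors, -0.0028 without a filter, -0.012 by DESeq2, -0.0039 by limma-voom and -0.0044 with the replicate number as a block. Psma1 turned to 0.012 and Psmb1 to 0.0014 with upper-quartile scaling, and to 0.019 and 0.0092 with the stricter filter. Psmd6 turned to -0.00029 without a filter and -0.0094 by DESeq2, Psma3 to -0.00071 by DESeq2 and Psmb9 to -0.070 by limma-voom. The ranges on leaving out each library were Dnajb1 -0.17 to 0.011, Psma1 -0.066 to 0.039, Psma2 -0.17 to 0.053, Psma3 -0.057 to 0.071, Psma4 -0.13 to 0.065, Psma5 -0.12 to 0.018, Psma6 -0.16 to 0.010, Psma7 -0.041 to 0.11, Psma8 -0.32 to 0.34, Psmb1 -0.081 to 0.064 and Psmb10 -0.31 to 0.087. For others they were Psmb2 -0.12 to 0.12, Psmb5 -0.15 to 0.18, Psmb6 -0.42 to 0.068, Psmb9 -0.25 to 0.39, Psmc1 -0.28 to 0.016, Psmc3 -0.19 to 0.063, Psmc5 -0.45 to 0.032, Psmd11 -0.015 to 0.053, Psmd14 -0.16 to 0.029, Psmd3 -0.20 to 0.0059 and Psmd4 -0.13 to 0.070. The last were Psmd6 -0.070 to 0.10, Psmd7 -0.17 to 0.0088, Psmd8 -0.12 to 0.048, Psmd9 -0.055 to 0.10, Psme1 -0.025 to 0.22, Psme2 -0.048 to 0.13, Psme2b -0.10 to 0.39, Psme4 -0.042 to 0.13, Psmg1 -0.13 to 0.058, Psmg2 -0.27 to 0.019 and Psmg4 -0.22 to 0.087.

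Same-numbered libraries share only a number and were not treated as pairs (correlations of their deviations 0.051, -0.027 and 0.11). With the replicate block the members' median was -0.05, with 0 members called and 1458 genes at an unadjusted p under 0.05, against 1202. Depth limited Psma8, Psmb8, Psmb9, Psmb11, Psmc3ip, Psme2b and Psmg4, each with fewer than 100 counts in some library.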
